A study of Mus musculus with 4 samples.

Results

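Aminoacyl-tRNA synthetases are the enzymes that join each amino acid to its transfer RNA. The gene set described here holds the nuclear genes of the cytosolic and mitochondrial synthetases, with the scaffold proteins that hold several cytosolic enzymes together. Its members were chosen by name, as genes whose platform annotation gives exactly 1 symbol built as a capital letter followed by "ars", with or without a suffix, plus Eprs, Farsa, Farsb, Aimp1 and Eef1e1. This gave 36 genes of 22180 tested. A gene with several rows was represented by its brightest row, which concerned Aimp1 and Nars2, with 2 rows each. Mitochondrial enzymes carry the suffix 2, and 16 members do. The other 20, called the cytosolic group below, are 16 cytosolic synthetase genes, Gars and Kars, whose transcripts supply both compartments, and the scaffold genes Aimp1 and Eef1e1.

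The cells were cultured primary keratinocytes, the main cell type of the epidermis, from C57BL/6J mice 1 week old. Every mouse carried floxed Glut1 alleles (Glut1 fl/fl). The wild-type group had no Cre, and the Glut1-deficient group also carried K14 Cre, which is driven by the keratin 14 promoter and so acts in basal keratinocytes and not in the fibroblasts or melanocytes a skin culture may hold. Keratinocytes came from 4 mice per genotype, grew for 3 days, were replated in equal numbers and were collected 1 day after that. An array received the combined cells of 2 plates, and there were 2 MoGene 2.0 arrays of wild-type and 2 of Glut1-deficient cells. Each sample for lysis held 1500000 wild-type or 1000000 Glut1-deficient cells. Glut1, encoded by Slc2a1, imports glucose, and the comparison asks how transcription differs without it.

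In the cytosol each tRNA is charged by its own synthetase before the ribosome can use it. Several of these enzymes, with Aimp1, Aimp2 and Eef1e1, form the multi-synthetase complex, while others act alone or as subunit pairs. Mitochondria translate their own small genome with a separate set of synthetases that are made in the cytosol and imported. Uncharged tRNA activates the kinase GCN2, which phosphorylates the initiation factor eIF2 and favours translation of ATF4, a transcription factor known to raise many cytosolic synthetase genes through C/EBP-ATF response elements.

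The arrays had median log2 signals between 4.07 and 4.11, and the 2 arrays of a genotype correlated more closely (r = 0.9962 and 0.9951 over genes) than arrays of different genotypes (0.9866 to 0.9909). Keratinocyte identity was checked first. Krt14 read 12.56 and 12.54 on the wild-type arrays and 12.15 and 12.21 on the Glut1-deficient arrays, and 0 of 11 keratinocyte markers passed the test in limma. At an unadjusted p under 0.05, 5 of them were lower (Col17a1 by -0.73, Itgb4 -0.57, Krt14 -0.37, Itga6 -0.31 and Trp63 -0.29 on the log2 scale). At that level 2 were higher (Dsg3 by 0.47 and Perp by 0.30), against 11.2% of all genes lower and 11% higher. Krt15, Krt1, Dsp and Krt10 had estimates of 0.11, 0.34, 0.01 and -0.04, with overlapping arrays. Of the other cell types, 1 of 12 fibroblast markers and 5 of 9 melanocyte markers rose, 0 of 7 immune markers passed, and 1 of 6 endothelial markers (Kdr) rose. Over all genes 1.79% rose. Slc2a1 differed by -0.075 on the log2 scale in its brighter row (SE 0.0865, limma adjusted p = 0.675), and the sources used here do not place its probes relative to the deleted exons, so it checks nothing about the labels.

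In the cytosolic group 6 of 20 genes rose (Cars, Sars, Yars, Wars, Eprs and Lars, by 1.49-fold to 1.76-fold), 0 fell and 14 did not pass at a Benjamini-Hochberg adjusted p of 0.05 in limma. Over all genes tested, 1.79% rose and 1.05% fell. None of the 16 mitochondrial synthetase genes passed in either direction in limma, where 3 were higher and 1 lower at an unadjusted p under 0.05. At that unadjusted level 11% of all genes were higher and 11.2% lower. By sign, 18 of the 20 cytosolic-group and 9 of the 16 mitochondrial estimates were positive, against 48.4% of all genes. The median log2 fold change was 0.43 for the cytosolic group, 0.01 for the mitochondrial genes and -0.0074 over all genes. These lists are described by their counts and medians without a test of the list, and each gene's test comes from the fit over all genes. The calls differed between settings. With an intensity trend 14 genes of the cytosolic group and 1 mitochondrial gene (Fars2) rose, beside 6.06% of all genes. Without any one of the 4 arrays, or with all 41345 rows tested, 0 of the 36 passed in limma, while 14 of the cytosolic group were higher at an unadjusted p under 0.05 each time.

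**Figure D1:**
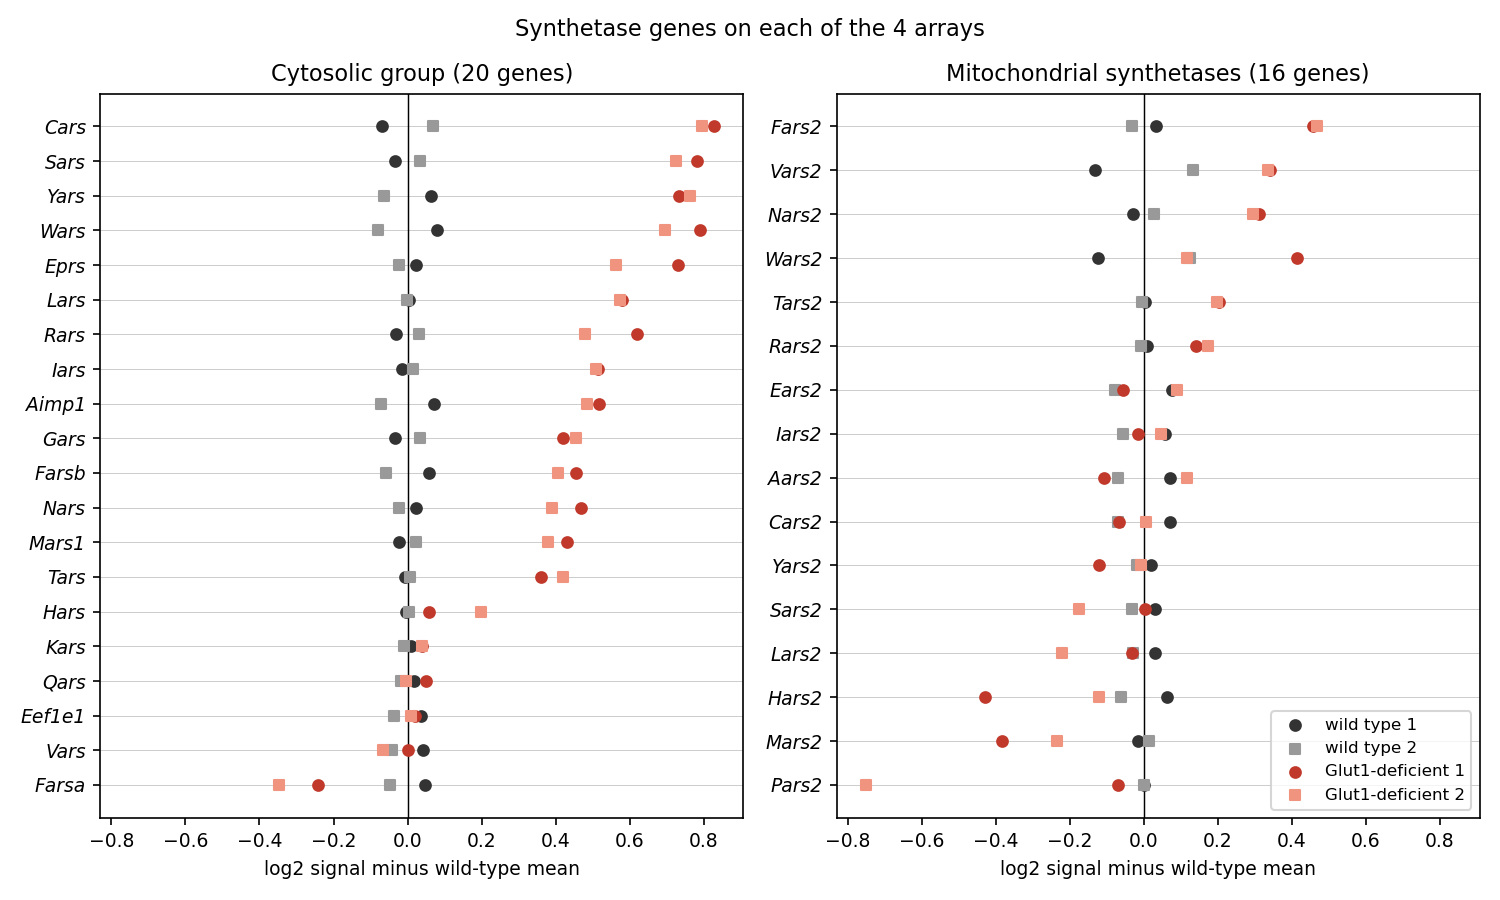
Log2 signal of each member on each of the 4 arrays, as the difference from that gene's wild-type mean, with the cytosolic group on the left and the mitochondrial synthetases on the right, both ordered by fold change. For 16 of the 20 genes on the left both Glut1-deficient arrays lie above both wild-type arrays, against 5 of the 16 genes on the right. The same holds for 25.5% of all genes tested.

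Cars, which charges cysteine tRNA, had the largest fold change of the 36 genes. It read 8.32 and 8.45 on the wild-type arrays and 9.21 and 9.18 on the Glut1-deficient arrays, a log2 fold change of 0.81 (SE 0.0939, limma adjusted p = 0.0302) or 1.76-fold. The groups did not overlap, and the gap between their nearest arrays was 0.73. Sars, the seryl-tRNA synthetase gene, read 10.40 and 10.47 in wild type and 11.22 and 11.16 in Glut1-deficient cells, a 1.69-fold rise (log2 fold change 0.75, SE 0.0875, limma adjusted p = 0.0305). Serine charging also precedes selenocysteine synthesis, since the serine attached by this enzyme is converted on its tRNA. Yars, for tyrosine, read 8.41 and 8.28 against 9.08 and 9.11, a 1.68-fold rise (SE 0.0924 on the log2 scale, limma adjusted p = 0.0339). Wars, for tryptophan, which is also a well-known interferon-induced gene, read 9.16 and 8.99 against 9.87 and 9.77, a 1.67-fold rise (SE 0.102, limma adjusted p = 0.0399). For these genes all Glut1-deficient arrays stood above all wild-type arrays by at least 0.616 on the log2 scale.

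Eprs encodes a bifunctional enzyme that charges glutamate and proline tRNAs and sits in the multi-synthetase complex. Its signal was 9.66 and 9.61 in wild type and 10.37 and 10.20 in Glut1-deficient cells, a 1.57-fold rise (log2 fold change 0.65, SE 0.0993, limma adjusted p = 0.0488). Lars, for leucine, is another member of the complex and is known as a leucine sensor upstream of mTORC1. It read 9.28 and 9.27 against 9.85 and 9.85, with SDs of 0.0039 and 0.0033 within the genotypes, and rose 1.49-fold (SE 0.0827, limma adjusted p = 0.0433). Eprs lies just inside the threshold and Iars, for isoleucine, just outside it. Iars read 10.28 and 10.31 against 10.81 and 10.80, a log2 fold change of 0.51 (SE 0.0833, limma adjusted p = 0.0533).

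Besides the 6 genes that rose, 8 members of the cytosolic group had log2 fold changes between 0.39 and 0.55, with adjusted p from 0.0533 to 0.0872 in limma. They are Iars, Rars (arginine), Aimp1, Gars (glycine), Farsb (the beta subunit for phenylalanine), Nars (asparagine), Mars1 (methionine) and Tars (threonine). Rars read 10.39 and 10.45 in wild type and 11.04 and 10.90 in Glut1-deficient cells. Aimp1, a scaffold of the complex that is also cleaved to a secreted cytokine, read 8.71 and 8.57 against 9.16 and 9.12, and its dimmer row had a log2 fold change of 0.16 (SE 0.142). Gars read 10.76 and 10.82 against 11.21 and 11.24. Gars is 1 of the 2 genes whose product works in both compartments, and the other, Kars, is among the genes that differed least. Nars read 10.82 and 10.78 in wild type and 11.27 and 11.19 in Glut1-deficient cells. Mars1 read 9.03 and 9.07 against 9.48 and 9.43. Tars read 9.78 and 9.80 against 10.15 and 10.21. In each of these 8 genes and the 6 that rose, both Glut1-deficient arrays exceeded both wild-type arrays, by at least 0.348. The separation of arrays alone is common here, since both Glut1-deficient arrays lay above both wild-type arrays for 25.5% of all genes and below them for 27.7%. It held upward for 16 of 20 cytosolic-group genes. All 14 had adjusted p under 0.10 in limma, as did 4.62% of all genes in the upward and 3.75% in the downward direction.

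The other 6 members of the cytosolic group lay between -0.29 and 0.13, with no member between 0.13 and 0.39. The row naming Aars, left out of the set because it also names Exosc6, lay in that gap at 0.28 (fitted over all rows). Hars, for histidine, read 9.11 and 9.12 in wild type and 9.17 and 9.31 in Glut1-deficient cells (log2 fold change 0.13, 95% interval -0.11 to 0.37). Kars, the lysyl enzyme of both compartments, had values from 9.62 to 9.67 on all 4 arrays (0.04, interval -0.17 to 0.25). Qars, for glutamine, had values from 9.59 to 9.66 (0.02, interval -0.20 to 0.24). The intervals of Kars and Qars end at 0.25 and 0.24, under the smallest estimate among the 14 genes above, that of Tars. The interval of Tars, 0.17 to 0.61, overlaps both, and differences between genes were not tested. Vars, the valyl enzyme, which binds elongation factor 1 and stands outside the multi-synthetase complex, read 8.85 and 8.77 against 8.81 and 8.74 (-0.03, interval -0.26 to 0.20). Eef1e1, the small scaffold also called AIMP3, read 10.69 and 10.62 against 10.67 and 10.66 (0.01, interval -0.21 to 0.24), so its arrays overlapped.

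Farsa and Farsb encode the alpha and beta subunits of the cytosolic phenylalanyl enzyme, a heterotetramer that needs both, and their estimates had opposite signs. Farsb read 8.51 and 8.39 in wild type and 8.91 and 8.86 in Glut1-deficient cells (log2 fold change 0.43, SE 0.0921, limma adjusted p = 0.0844). Farsa read 6.98 and 6.89 against 6.69 and 6.59 (-0.29, SE 0.0941, limma adjusted p = 0.165). Neither passed over all genes, although within each subunit the genotypes did not overlap. Farsa had the lowest signal of the cytosolic group.

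**Figure D2:**
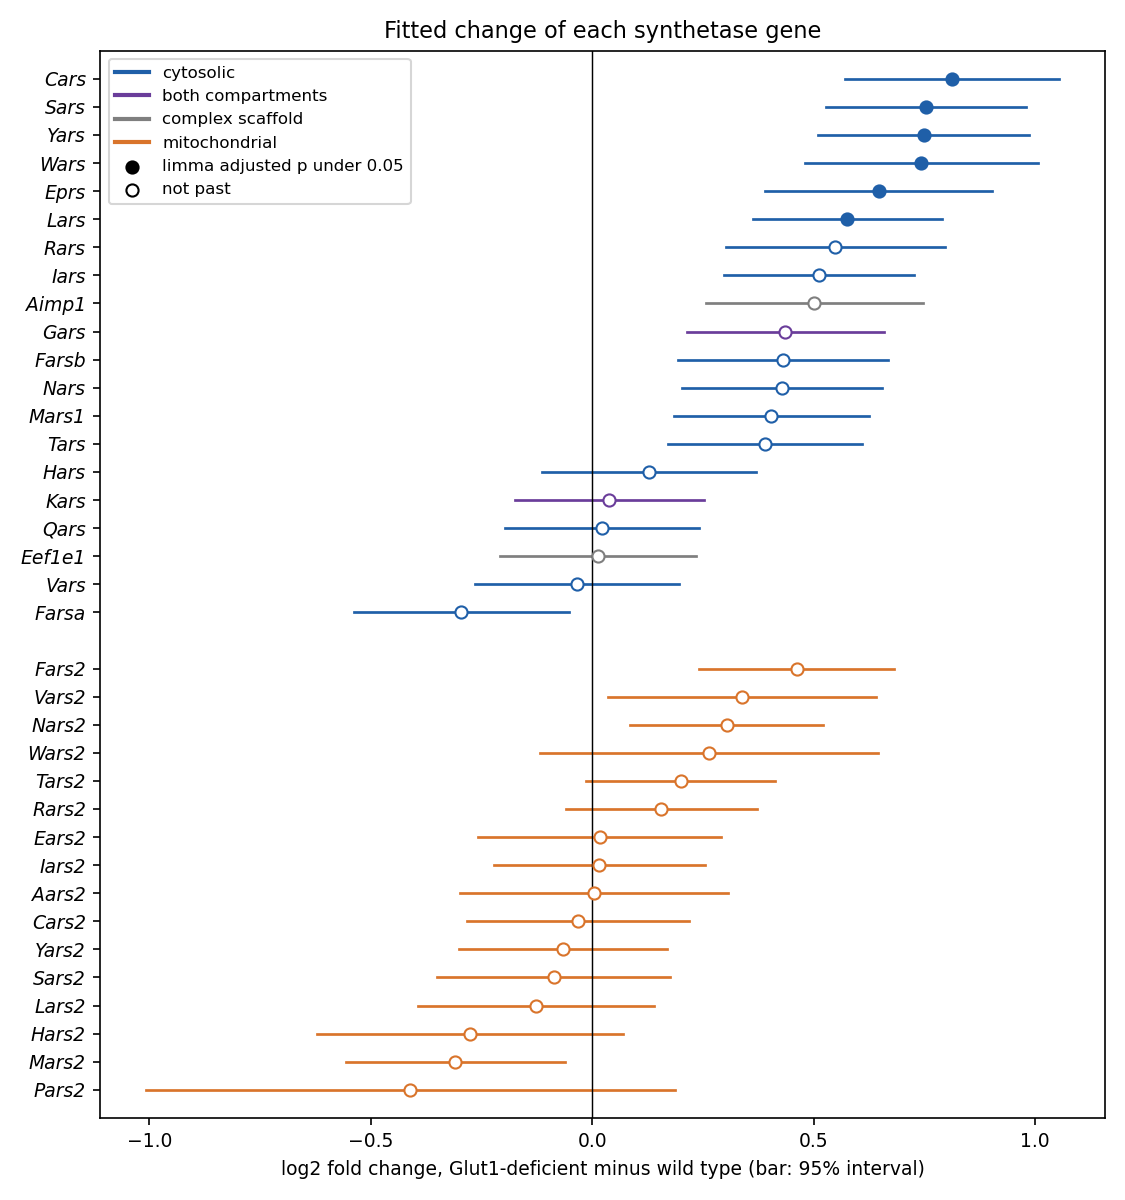
Fitted log2 fold change of each member (Glut1-deficient minus wild type) with its 95% interval from limma, the cytosolic group above and the mitochondrial synthetases below. The 6 filled points passed over all genes, and the largest mitochondrial estimate is that of Fars2 at 0.46.

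In the structural grouping of the enzymes, class I synthetases have a Rossmann fold and class II an antiparallel sheet as catalytic core. Of 10 class I genes of the cytosolic group, counting Eprs, which holds a domain of each class, 5 rose and 9 had positive estimates, with a median log2 fold change of 0.56. Among 8 class II genes 1 rose (Sars) and 7 had positive estimates, with a median of 0.41. The multi-synthetase complex was represented by 9 genes, of which 2 rose (Eprs and Lars), 0 fell and 9 had positive estimates. Their median was 0.50, while that of the 11 cytosolic-group synthetases outside the complex was 0.43, with 4 risen. Within the complex the estimates fell into Eprs, Lars, Rars, Iars, Aimp1 and Mars1 at 0.40 to 0.65, and Kars, Qars and Eef1e1 at 0.01 to 0.04. Over all genes 1.79% rose and 48.4% of estimates were positive. Neither the classes nor the complex and the other enzymes were tested against each other.

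The promoter windows were read because the C/EBP-ATF element is known from several synthetase genes. RefSeq windows of 300 bases (GRCm38.p6, 250 before to 50 after the annotated start) were searched for 27 of the 36 genes. Those of Cars, Hars, Hars2, Lars, Nars, Pars2, Rars, Vars and Wars were not searched. The search of members left out a whole chromosome, so a gene not searched may still have a window. The windows of the 27 genes were searched on both strands for the C/EBP-ATF element TGATGCAA and its looser form TGATGNAA, which includes it. The 4 windows shown are all the searched member windows that hold a match, with capitals marking the match to TGATGNAA or its reverse complement.
Yars (chr4:129189653-129189952, plus strand): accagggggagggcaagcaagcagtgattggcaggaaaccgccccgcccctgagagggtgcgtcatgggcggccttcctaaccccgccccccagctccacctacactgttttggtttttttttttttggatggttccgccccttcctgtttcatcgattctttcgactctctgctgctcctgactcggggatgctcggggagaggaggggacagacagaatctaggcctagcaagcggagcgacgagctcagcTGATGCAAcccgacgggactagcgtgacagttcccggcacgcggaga
Iars (chr13:49681880-49682179, plus strand): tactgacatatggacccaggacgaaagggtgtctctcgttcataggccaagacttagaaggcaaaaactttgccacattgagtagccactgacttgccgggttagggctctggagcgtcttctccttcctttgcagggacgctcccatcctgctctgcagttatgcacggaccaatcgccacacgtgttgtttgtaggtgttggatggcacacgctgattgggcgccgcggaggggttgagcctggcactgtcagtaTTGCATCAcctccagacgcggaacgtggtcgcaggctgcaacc
Tars (chr15:11399609-11399908, minus strand): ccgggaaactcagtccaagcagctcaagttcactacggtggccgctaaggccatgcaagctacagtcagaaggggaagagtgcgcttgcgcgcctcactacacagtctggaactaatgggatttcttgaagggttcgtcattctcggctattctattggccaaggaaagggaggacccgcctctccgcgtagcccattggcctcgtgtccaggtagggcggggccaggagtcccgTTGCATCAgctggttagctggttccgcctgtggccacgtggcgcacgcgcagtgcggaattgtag
Gars (chr6:55037751-55038050, plus strand): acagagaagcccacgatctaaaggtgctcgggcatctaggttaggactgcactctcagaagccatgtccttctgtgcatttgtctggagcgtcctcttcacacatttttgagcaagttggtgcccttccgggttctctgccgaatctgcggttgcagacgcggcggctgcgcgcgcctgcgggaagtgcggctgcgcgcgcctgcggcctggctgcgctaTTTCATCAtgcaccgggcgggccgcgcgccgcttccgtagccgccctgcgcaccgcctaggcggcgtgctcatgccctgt

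In Yars, Iars and Tars the match is to TGATGCAA itself, beginning 3 and 7 bases after the annotated start in Yars and Iars and 15 bases before it in Tars. The match in Gars, 30 bases before the start, is to the looser form alone. Of these genes Yars rose, while Iars, Gars and Tars had estimates of 0.51, 0.44 and 0.39 and did not pass. TGATGCAA was found in 3 of 13 cytosolic-group genes with a searched window and 0 of 14 mitochondrial ones. It was found in 1.03% of all 27025 genes with a window (0.895% of 32851 windows). The shares over all genes include the chromosome left out for members. TGATGNAA was found in 4 of 13 and 0 of 14, and in 4.51% of all genes (3.97% of windows). Eprs and Sars, which rose, have a window without these letters, which says nothing about elements elsewhere. The E-box CACGTG was found in 3 of 13 and 1 of 14 genes (8.09% of all genes, 7.15% of windows), and the palindromic NRF1 motif, with 1 free base, in 4 of 13 and 2 of 14 (5.19% of all genes, 4.60% of windows). A match is a description of letters and no evidence of binding.

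The mitochondrial synthetases spread around no change. Of 16 genes 9 had positive and 7 negative log2 fold changes, from -0.41 (Pars2) to 0.46 (Fars2), and the middle 50% lay between -0.10 and 0.22. Both Glut1-deficient arrays lay above both wild-type arrays for 5 genes, below them for 4, and the arrays overlapped for 7. The shares are close to the 25.5% and 27.7% of all genes.

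Fars2, the monomeric mitochondrial phenylalanyl enzyme, had the largest estimate of this compartment. It read 6.29 and 6.22 in wild type and 6.71 and 6.72 in Glut1-deficient cells, a log2 fold change of 0.46 (SE 0.0852, limma adjusted p = 0.0655). Its genotypes were separated by 0.42, and the SDs within them were 0.045 and 0.0076. With a variance trend on intensity its limma adjusted p was 0.0203, and over the alternatives it ran from 0.0163 (brighter genes alone) to 0.303 (wild-type array 1 left out). In the trend fit 6.06% of all genes rose and 5.98% fell. Vars2, the mitochondrial valyl enzyme, read 6.41 and 6.68 against 6.89 and 6.88 (log2 fold change 0.34, SE 0.118, limma adjusted p = 0.19). Nars2, for mitochondrial asparagine, read 5.95 and 6.01 against 6.29 and 6.28 (0.30, SE 0.0848, limma adjusted p = 0.133), and its dimmer row had a value of -0.058. Tars2 read 7.72 and 7.71 against 7.92 and 7.91 (0.20), and Rars2 had an estimate of 0.16, both with intervals that include 0. Wars2 had an estimate of 0.26, with Glut1-deficient values of 5.82 and 5.53, the second within the wild-type range.

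Aars2, Cars2, Ears2, Iars2, Sars2 and Yars2 had estimates between -0.09 and 0.02, and on each the genotypes overlapped. Iars2, the mitochondrial isoleucyl enzyme and the brightest row of this compartment, read 8.33 and 8.21 in wild type and 8.25 and 8.32 in Glut1-deficient cells (95% interval -0.22 to 0.25). The lowest estimates belonged to Lars2, Hars2, Mars2 and Pars2. Mars2, for mitochondrial methionine, read 6.18 and 6.21 against 5.81 and 5.96 (-0.31, SE 0.0956, limma adjusted p = 0.157). Lars2 read 6.62 and 6.56 against 6.56 and 6.37, so that its genotypes all but touched. Hars2 read 6.56 and 6.43 against 6.07 and 6.38, with an interval of -0.62 to 0.07. Pars2, for mitochondrial proline, read 5.67 on both wild-type arrays and 5.60 and 4.92 on the Glut1-deficient arrays. Its estimate of -0.41 rested on Glut1-deficient array 2, and was -0.07 without it.

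The rows of the mitochondrial genes were dimmer, with mean log2 signals from 5.47 to 8.28 against 6.79 to 11.02 in the cytosolic group, and only Farsa of the cytosolic group lay in the mitochondrial range. Signals of different rows do not rank transcripts. Among the 6384 genes in the signal range of the mitochondrial synthetases, 3.6% rose and 2.19% fell, so calls were made at these signals, and their median log2 fold change was -0.0066. Among the 6581 genes in the range of the cytosolic group 3.19% rose, with a median of -0.022. How far signal contributed to the difference between compartments was not tested.

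**Figure D3:**
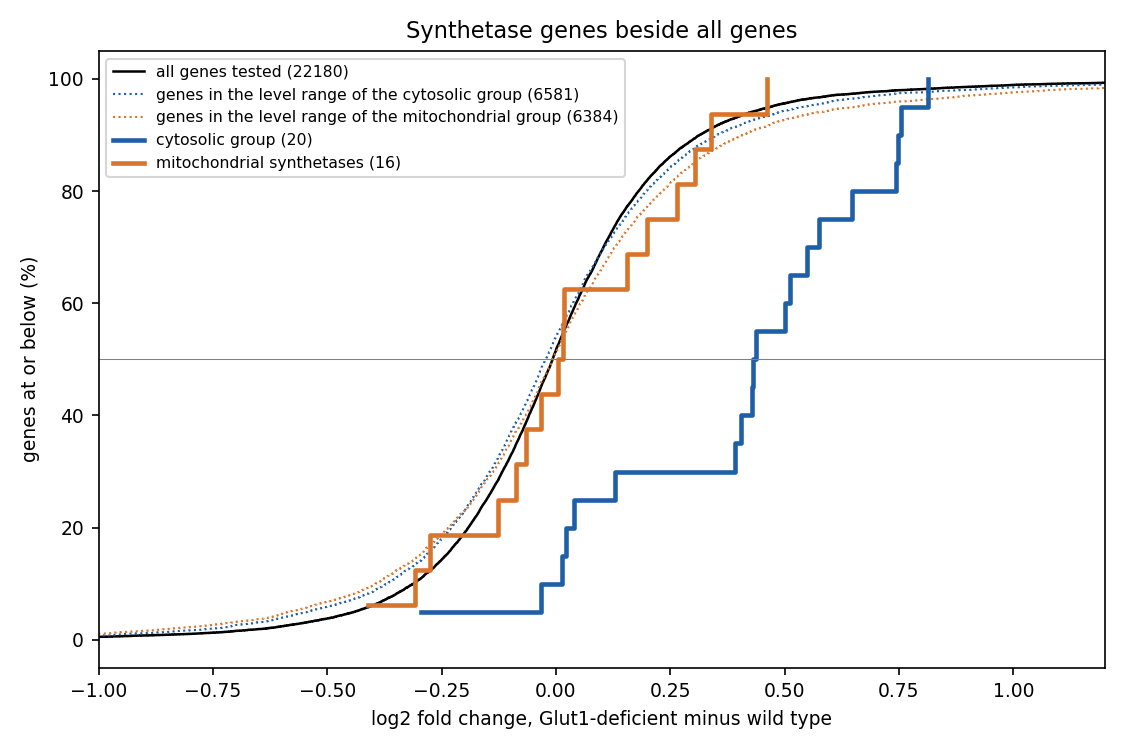
Cumulative share of genes by log2 fold change (Glut1-deficient minus wild type) for the cytosolic group, the mitochondrial synthetases, all genes tested and all genes in the signal range of each group. The curve of the mitochondrial synthetases crosses 50% near 0.01, beside all genes, and that of the cytosolic group at 0.43.

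For 12 amino acids the set holds exactly 1 cytosolic and 1 mitochondrial gene, so that the compartments can be set side by side within an amino acid. The cytosolic gene had the higher log2 fold change in 11 of the 12 pairs, and the median difference was 0.49. Relative to the wild-type mean, the median difference of the 12 pairs was -0.02 and 0.02 on the wild-type arrays and 0.51 and 0.52 on the Glut1-deficient arrays. The largest differences were those of cysteine (Cars over Cars2, 0.84), serine (Sars over Sars2, 0.84) and tyrosine (Yars over Yars2, 0.81). For cysteine the relative values were -0.14 and 0.14 in wild type and 0.90 and 0.79 in Glut1-deficient cells. No test of the pair differences was run, and an exact two-sided permutation test of 2 arrays against 2 cannot give a p below 0.333.

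Methionine and leucine followed at 0.71 and 0.70, where the cytosolic estimate was positive and the mitochondrial one negative. Isoleucine (0.50), tryptophan (0.48), histidine (0.40) and arginine (0.39) lay in the middle. Tryptophan was the noisiest of these, with relative values of 0.20 and -0.20 in wild type against 0.38 and 0.58. Threonine (0.19) and asparagine (0.12) showed the smallest gaps, since Tars2 and Nars2 had positive estimates beside those of Tars and Nars. Valine was the exception. Vars2 had the higher estimate, and the difference of Vars minus Vars2 was -0.37, with relative values of 0.17 and -0.17 in wild type and -0.34 and -0.40 in Glut1-deficient cells.

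Glutamate, proline and phenylalanine have no such simple pair. Eprs was above Ears2 by 0.63 and above Pars2 by 1.06, the latter with 0.80 and 1.31 on the 2 Glut1-deficient arrays. Farsb minus Fars2 was -0.03, with overlapping arrays, and Farsa minus Fars2 was -0.76. In phenylalanine, as in valine, neither cytosolic estimate was above the mitochondrial one.

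**Figure D4:**
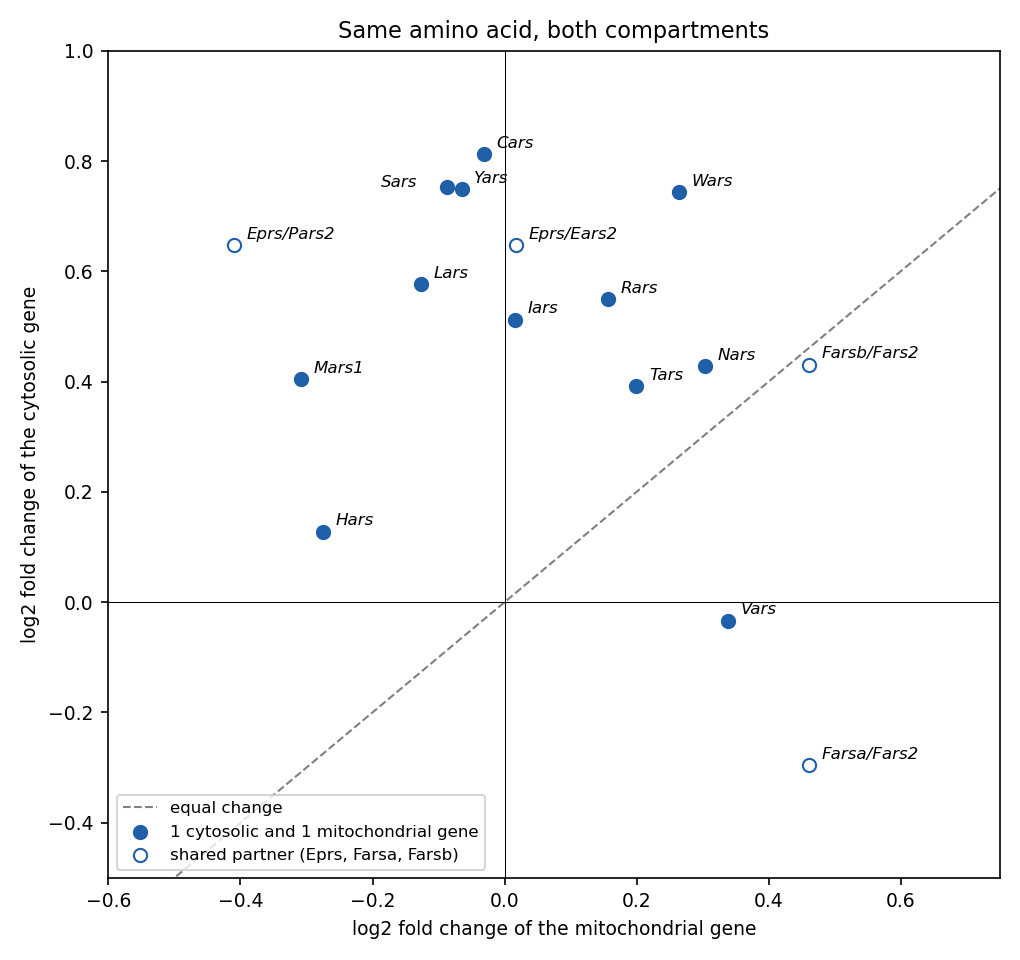
Log2 fold change of the cytosolic gene against that of the mitochondrial gene for the same amino acid, with the dashed line marking equal change. Of the 12 filled points 11 lie above the line, and valine lies below it at 0.34 and -0.03.

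Alanine was not compared. The row of Aars, the cytosolic alanyl enzyme, also names Exosc6, and that of Aimp2 also names Eif2ak1, so neither entered the set. The row naming Aars read 8.60 and 8.71 in wild type and 9.02 and 8.85 in Glut1-deficient cells (log2 fold change 0.28, 95% interval -0.03 to 0.59, fitted over all rows). The row naming Aimp2 had a log2 fold change of -0.0047 (interval -0.27 to 0.26).

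Genes that act beside the synthetases were read from lists chosen by function. Among 11 synthetase relatives and charging accessories 1 rose, 0 fell and 10 did not pass (median 0.06), where 1.79% of all genes rose. The one that rose was Sepsecs, which turns phosphoserine on its tRNA into selenocysteine after Sars has attached serine. It read 6.24 and 6.15 in wild type and 6.82 and 6.94 in Glut1-deficient cells, a 1.61-fold rise (SE 0.0944, limma adjusted p = 0.0401). Gatc, a subunit of the mitochondrial amidotransferase that makes glutaminyl-tRNA, read 9.53 and 9.48 against 9.85 and 9.89 (log2 fold change 0.36, limma adjusted p = 0.0983).

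Of 23 genes of tRNA transcription, processing and export 1 rose, 0 fell and 22 did not pass (median -0.0086), where 1.79% of all genes rose. Xpot, exportin-T, carries tRNA out of the nucleus. It read 8.74 and 8.79 against 9.58 and 9.57, a 1.75-fold rise (SE 0.0841, limma adjusted p = 0.0255), close in size to that of Cars. Mettl1, a tRNA methyltransferase, read 6.91 and 6.87 against 7.30 and 7.32 (0.42 on the log2 scale, limma adjusted p = 0.0746).

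The translation machinery that uses charged tRNA was compared next. None of 5 cytosolic elongation factors passed in limma (2 at an unadjusted p under 0.05, both higher), and their median was 0.19. None of 66 cytosolic ribosomal protein genes passed (24 higher and 2 lower at an unadjusted p under 0.05), with 55 positive estimates and a median of 0.17. For mitochondria, 0 of 9 translation factors passed in limma (1 higher and 1 lower unadjusted) with a median of 0.06, and 0 of 71 ribosomal protein genes passed (13 higher and 7 lower unadjusted) with a median of 0.07. Over all genes 11% were higher and 11.2% lower at that unadjusted level, and 48.4% of estimates were positive.

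A list joining genes that sense uncharged tRNA with genes of the ATF4 response held 14 tested genes, with a median of 0.69. Of these 7 did not pass, 0 fell and 7 rose, where 1.05% of all genes fell and 1.79% rose. The 7 that rose were Ddit3, Ppp1r15a, Trib3, Atf4, Atf3, Cebpb and Cebpg. They are response genes that eIF2 kinases other than GCN2 can also engage. The arrays do not measure kinase activity, and whether any eIF2 kinase acted was not tested. Atf4 itself read 8.82 and 8.93 in wild type and 10.16 and 9.97 in Glut1-deficient cells, a 2.28-fold rise (SE 0.11, limma adjusted p = 0.0211). Ddit3 (CHOP) rose 6.98-fold, Trib3, a pseudokinase that restrains ATF4 and CHOP, 4.82-fold, and Ppp1r15a, which directs dephosphorylation of eIF2, 3.71-fold. The sensors, named here after their values were seen, did not pass. Eif2ak4, which encodes GCN2, read 6.19 and 6.29 against 6.06 and 6.20 (log2 fold change -0.11, interval -0.37 to 0.14), and its activator Gcn1 had an estimate of 0.082 (interval -0.14 to 0.30).

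**Figure D5:**
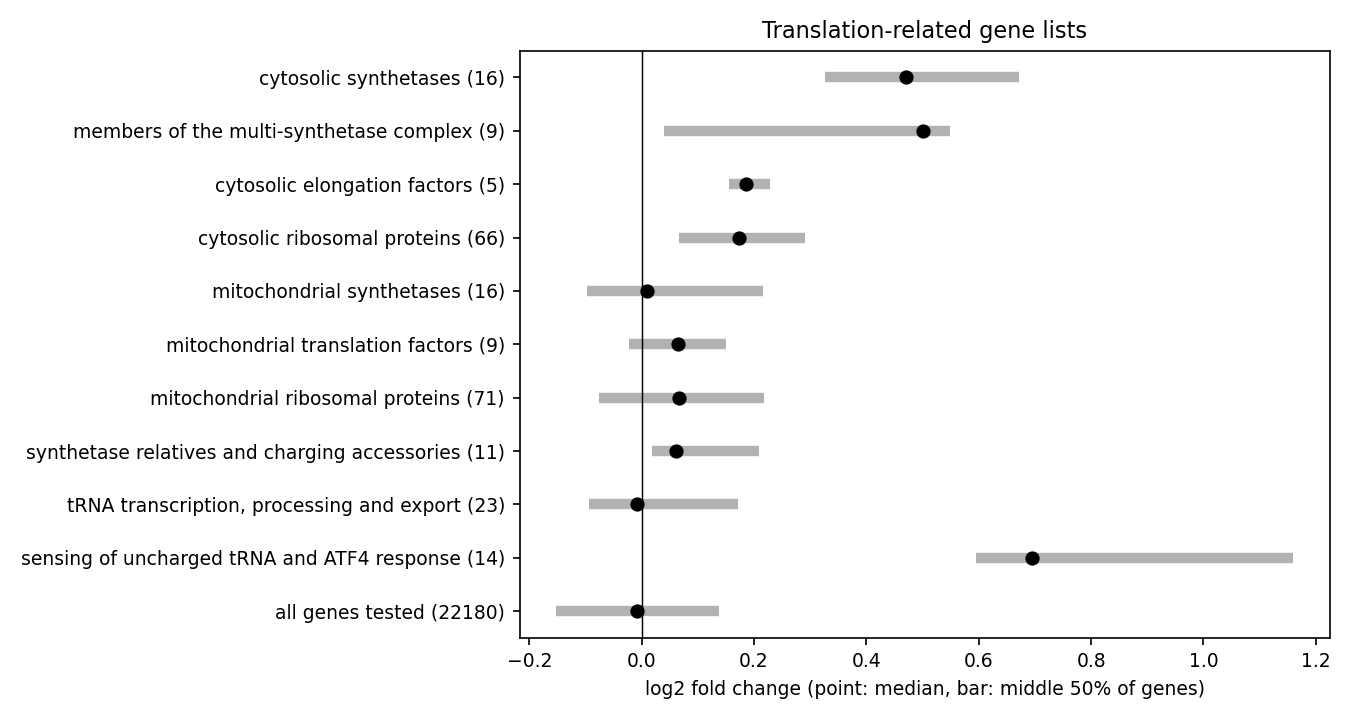
Median log2 fold change (point) and the middle 50% of genes (bar) for the synthetase sets and related lists, with the number of genes in brackets. Among the lists drawn, the one of uncharged-tRNA sensing and ATF4 response genes has a median of 0.69, the multi-synthetase complex 0.50 and the cytosolic synthetases 0.47, and the mitochondrial lists lie between 0.01 and 0.07.

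Fibroblast and melanocyte markers were mostly higher on the Glut1-deficient arrays. Of 7 immune markers 3 had positive and 4 negative estimates, and of 6 endothelial markers 3 were positive and 3 negative. Of 12 fibroblast markers 11 had positive estimates, although Twist2 alone rose at the adjusted threshold. At an unadjusted p under 0.05 in limma 9 were higher and 1 lower (Fbln1, by -0.61 on the log2 scale). At that level 11% of all genes were higher and 11.2% lower. The mean log2 signal of the fibroblast list was 4.86 and 4.86 on the wild-type arrays and 6.31 and 5.73 on the Glut1-deficient arrays. Of 9 melanocyte markers 8 had positive estimates and 5 rose, and their mean was 5.07 and 4.88 against 5.75 and 5.86. Over all genes 48.4% of estimates were positive and 1.79% rose. The mean of the 11 keratinocyte markers, which joins genes with lower and with higher values, lay between 8.94 and 9.07 on the 4 arrays. The scale has no zero at which a marker could be called missing, and in bulk RNA more cells of a type and more RNA per cell cannot be told apart. Relative to wild type, Glut1-deficient arrays 1 and 2 had fibroblast medians of 1.35 and 0.74 and melanocyte medians of 0.74 and 0.95. The medians of the cytosolic group on the same arrays were 0.46 and 0.44, and those of the mitochondrial synthetases -0.02 and 0.07. The part of other cell types in the synthetase values was not tested.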

How the data were processed

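Labelled total RNA was read on MoGene 2.0 arrays, 2 for each genotype. The authors deposited log2 signals for each transcript cluster. Expression Console (Affymetrix) and RMA are the tools named in the submitters' processing notes. RMA equalises the arrays' distributions, so changes are relative to other genes. Their versions and the genome build were not given in the sources used here, and no detection calls, slides or scan dates were used.

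Of 41345 rows, 23521 name 1 symbol, 1814 several and 16010 none. The brightest row stood for each of 22180 genes. Of the single-symbol rows 23328 were found by gene identifier in RefSeq's GRCm38.p6 table, and 0 symbols changed. Genotypes were compared with limma 3.58.1 in R 4.3.3 (lmFit, eBayes, no trend, 2 residual and 2.95 prior degrees of freedom), as Glut1-deficient minus wild type with two-sided p-values, Benjamini-Hochberg over all genes at 0.05, with no filter on dim genes. The labels call the arrays biological replicates. The labels do not say whether pools had mice in common. A p-value here reflects only how far pools differed, and precision is limited by having 4 arrays.

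The members, lists and motifs were chosen with earlier results of these data known. All members are named, and other genes are the deleted gene, markers, or up to 4 per list with the smallest p. The list of uncharged-tRNA sensing and ATF4 response is an exception, where all risen genes and the sensors Eif2ak4 and Gcn1 are named. Alternatives were an intensity trend with and without robust estimation, cyclic loess, median centring, a filter on dim genes, all rows, the mean of rows, each array left out, the replicate number as a block and a threshold of 0.10. Figures were drawn with matplotlib 3.10.9.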

Additional observations from a re-analysis of the deposited data

How the results depend on the processing

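The count of risen genes in the cytosolic group was 6. It was 14, with 1 mitochondrial gene (Fars2), under an intensity trend with or without robust estimation and at a threshold of 0.10, and 14, with 2 mitochondrial genes (Fars2 and Nars2), among genes above the median signal. The same 6 rose after median centring or averaging rows, and Iars joined them after cyclic loess. Over all 22180 genes 397 rose and 233 fell, against 1344 and 1327 with a trend, 1368 and 1361 with a robust trend, and 1024 and 831 at 0.10. The setting of genes above the median signal tested only 11090 genes, of which 1214 rose and 1113 fell. With all 41345 rows tested 0 rose and 0 fell in limma (3368 higher and 3326 lower at an unadjusted p under 0.05), so 0 members passed. Leaving out each of the 4 arrays in turn (1 residual degree of freedom), 0 genes rose or fell in limma (unadjusted 1518 to 2402 higher and 1430 to 2225 lower), and 14 cytosolic-group genes were still higher at an unadjusted p under 0.05. Adding the replicate number as a block left 32 risen and 5 fallen genes and 0 members, with 14 of the cytosolic group higher unadjusted. Of all 22180 genes in that limma fit, 2176 were higher and 2159 lower at an unadjusted p under 0.05. The replicate numbers are not described as pairs in the labels. The correlation of replicate differences was -0.025, which, with 1 difference per genotype, cannot decide whether samples were paired.

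The cytosolic-group median was 0.47 after cyclic loess and ranged from 0.428 to 0.471 with an array left out, the mitochondrial median from -0.063 to 0.074 and the pair difference from 0.51 to 0.55, with 11 of 12 pairs positive under every alternative. No mitochondrial gene fell under any alternative. With an array left out, estimates near 0 changed sign. They ranged from -0.076 to 0.0087 for Vars, -0.103 to 0.039 for Cars2, -0.060 to 0.094 for Ears2, -0.041 to 0.073 for Iars2, -0.107 to 0.116 for Aars2, -0.022 to 0.050 for Eef1e1, -0.0050 to 0.050 for Qars and -0.175 to 0.0022 for Sars2. Leaving out an array leaves 1 of a genotype, which is assumed to vary like the other genotype. The causes of these changes were not tested.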
